A study of Tachycineta bicolor with 12 samples.

Results

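The ovary of the tree swallow (Tachycineta bicolor) was compared with brain, spleen, liver, muscle and blood of the same females. The ovary was represented by 1 pool of RNA sequenced on a NextSeq and a MiSeq instrument, that is by 2 of the 12 libraries. Both libraries were summed, as were the 2 of each other tissue, and scaled to counts per 1000000 counts of the tissue (CPM). Each pool held RNA of 2 adult females: 1 bird from the start of the breeding season and 1 that was sitting on eggs. The follicles described were small, and white but for some yellow ones in the second bird. Within the pool the 2 birds and their stages cannot be told apart.

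The sums held 26192078.5 counts in the ovary, and 16496224.5 (spleen) to 42803055.5 (muscle) in the other tissues. A single count was worth 0.0382 CPM in the summed ovary data and 0.743 CPM in its MiSeq library, so the NextSeq library, with 94.9% of the ovary counts, set nearly every value. The assembly gave 14908 protein-coding segments, of which 14561 reached 1 CPM in at least 1 tissue and were compared. Ratios are given as log2 after adding 1 CPM to each level, and a segment was called higher or lower in the ovary where this ratio reached 4-fold, a log2 of 2. With 1 pool per tissue no test between tissues was possible. Intervals are exact Poisson intervals at 95%, which cover counting error but not differences between birds or RNA extractions. CPM is not scaled by transcript length, so levels were compared between tissues and not between genes. In whole tissue, fewer cells of a type and less RNA per cell cannot be told apart.

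In a bird ovary each oocyte lies within a layer of granulosa cells, surrounded by the theca and the stroma. The oocyte rests in the prophase of its first meiotic division and stores messenger RNA and proteins for the embryo. Its coat is built of zona pellucida glycoproteins, and its yolk is made in the liver and taken up from the blood through receptors on the oocyte surface. Granulosa and theca cells make progesterone, androgens and oestrogens under the control of pituitary gonadotropins.

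The 3 oocyte markers below were set beforehand together with the tissue, so their levels describe the tissue label and do not test it. ZP2, a glycoprotein of the egg coat, had 1248.5 CPM in the ovary NextSeq library and 1118 CPM in the ovary MiSeq library, and at most 1.98 CPM in any of the 10 libraries of other tissues. MOS, the kinase that holds the mature egg in meiosis, had 307 and 347 CPM in the same ovary libraries and at most 0.989 CPM in another library. The oocyte linker histone H1oo had 148 and 179 CPM there, against a single count in the blood MiSeq library and 0 in the other 9. For these 3 genes the summed level was highest in the ovary, as it was for 32.1% of all compared segments.

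A total of 792 segments (5.44%) were called higher in the ovary than in every other tissue, and none (0%) was called lower than in every other tissue. The 792 held 15.6% of the ovary counts, against 1.12% of the spleen counts, 0.819% of the brain counts and 0.239% (muscle) to 0.371% (liver) elsewhere. The direction of this difference follows from the 4-fold rule. Their ovary level had a median of 78.9 CPM and was 3.91 CPM at its lowest, that of DMRT1. The next highest tissue was brain for 350 of them (44.2%) and spleen for 324 (40.9%), followed by liver (48), blood (44) and muscle (26). In the NextSeq libraries alone 791 of the 792 were called, in the MiSeq libraries alone 707, and all 792 had their highest level in the ovary on both instruments. The 792 were chosen on the sums of these same libraries, and the NextSeq libraries hold most of each sum. These numbers therefore describe the set and are no independent check of it. Just inside the threshold lay the mitotic kinesin KIF20A, with 463 CPM in the ovary against 115 CPM in spleen. Just outside it lay wntless, which carries Wnt proteins to the cell surface, with 539 CPM in the ovary against 134 CPM in brain.

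**Figure D1:**
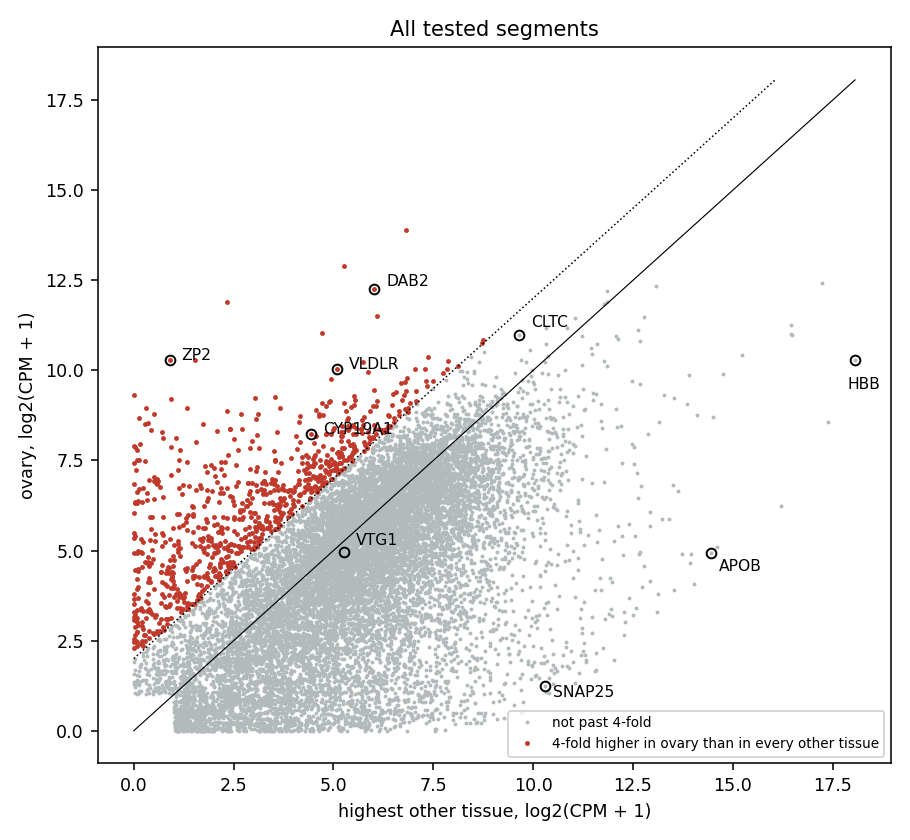
Level of each compared segment in the ovary (vertical axis, log2 of CPM plus 1) against its level in the highest of the other 5 tissues (horizontal axis, same scale). The 792 segments called higher in the ovary lie on or above the line of a 4-fold difference.

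The total used for scaling mattered for the size of this set. Scaling by the trimmed mean of M values (TMM), which discounts the few transcripts that dominate muscle, blood and liver, left 474 segments called (3.26%), all of them among the 792, and 783 of the 792 kept their highest level in the ovary. With the 50 most abundant segments of each tissue left out of its total, 680 (4.67%) were called. The highest level lay in the ovary for 4679 of all compared segments (32.1%), or 2522 (17.3%) with TMM. Over all compared segments the median log2 ratio of ovary to the highest other tissue was −0.74, and −1.58 with TMM. Among the list genes and leading segments that the text draws on, 124 were called higher in the ovary. Each of these 124 kept its highest level in the ovary with TMM, and without the 50 most abundant segments. The same held in the MiSeq libraries alone and with the segments of 1 name summed. Changing the constant added or the filter cannot alter which tissue is highest, and the NextSeq libraries alone hold most of each sum. Of the 124, 103 were still called with TMM, 115 without the 50 most abundant segments, and 121 in the MiSeq libraries alone.

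Genes of the oocyte itself had the highest list medians of the 30 lists. Since the lists were chosen with earlier results of these data known, this ranking describes them and tests nothing. Each count of called list genes below is read beside 5.44% of all segments, or 3.26% with TMM. Counts of list genes with their highest level in the ovary are read beside 32.1%, or 17.3% with TMM. The counts include ZP2, MOS and H1oo, which were set beforehand. Some genes stand on more than 1 list and are counted in each, so the lists are not independent of each other. Of 4 matched egg coat genes, 3 were called higher in the ovary and all 4 had their highest level there, with a median log2 ratio to the highest other tissue of 7.80. Of 21 oocyte factors, 13 were called, with a median of 4.22, and 12 were unique to the ovary in that they had at least 1 CPM there and less in each other tissue, as had 347 (2.38%) of all segments. ZP2 had a log2 ratio of 9.38 to brain, its next tissue. ZP4 had 362 CPM in the ovary against 0.212 CPM in spleen, and a ZP3-like transcript 181 CPM against 0.102 CPM in brain. The ZP2-cleaving protease ovastacin (ASTL), which in mammals hardens the coat after fertilization, had 1.58 CPM in the ovary and 0.0606 CPM in spleen, under the 4-fold rule. A relative outside the lists, chosen after its values were seen, zona pellucida-like domain-containing protein 1, had 25.2 CPM in the ovary and 3.59 CPM in liver.

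GDF9 and BMP15, growth factors that the oocyte sends to its granulosa cells, had 113 and 84.8 CPM in the ovary, against 0.485 and 0.424 CPM in spleen. Among regulators of oocyte genes, NOBOX had 20.3 CPM in the ovary against 0.606 CPM in spleen, and LHX8 60.1 CPM against 5.72 CPM in brain. NANOG, known from pluripotent cells, had 168 and 203 CPM in the 2 ovary libraries and no count in the other 10. Its ovary level was at least 936-fold higher when 3 counts were allowed in the shallowest of the other tissues. Of regulators of germ cells and early embryos, SALL4 had 80.5 CPM in the ovary and 3.36 CPM in spleen, and PRDM14 41.4 CPM in the ovary and 0.0234 CPM in muscle. BRDT, a bromodomain protein named for the testis, had 374 CPM in the ovary and 0.279 CPM in brain. Importin alpha-8 (KPNA7), which brings proteins into the nucleus of the egg, had 442 CPM in the ovary and 5.46 CPM in spleen. BIRC7, an inhibitor of apoptosis, had 500.2 CPM in the ovary and 0.243 CPM in spleen.

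Not every gene known from germ cells followed. KIT, the receptor of oocytes for the growth signal of granulosa cells, had 10.8 CPM in the ovary and 407 CPM in liver. PRDM1, which sets germ cell fate in the embryo and also acts in plasma cells, had 9.62 CPM in the ovary and 59.1 CPM in spleen. LIN28B had 2.35 CPM in the ovary and 2.34 CPM in brain.

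**Figure D2:**
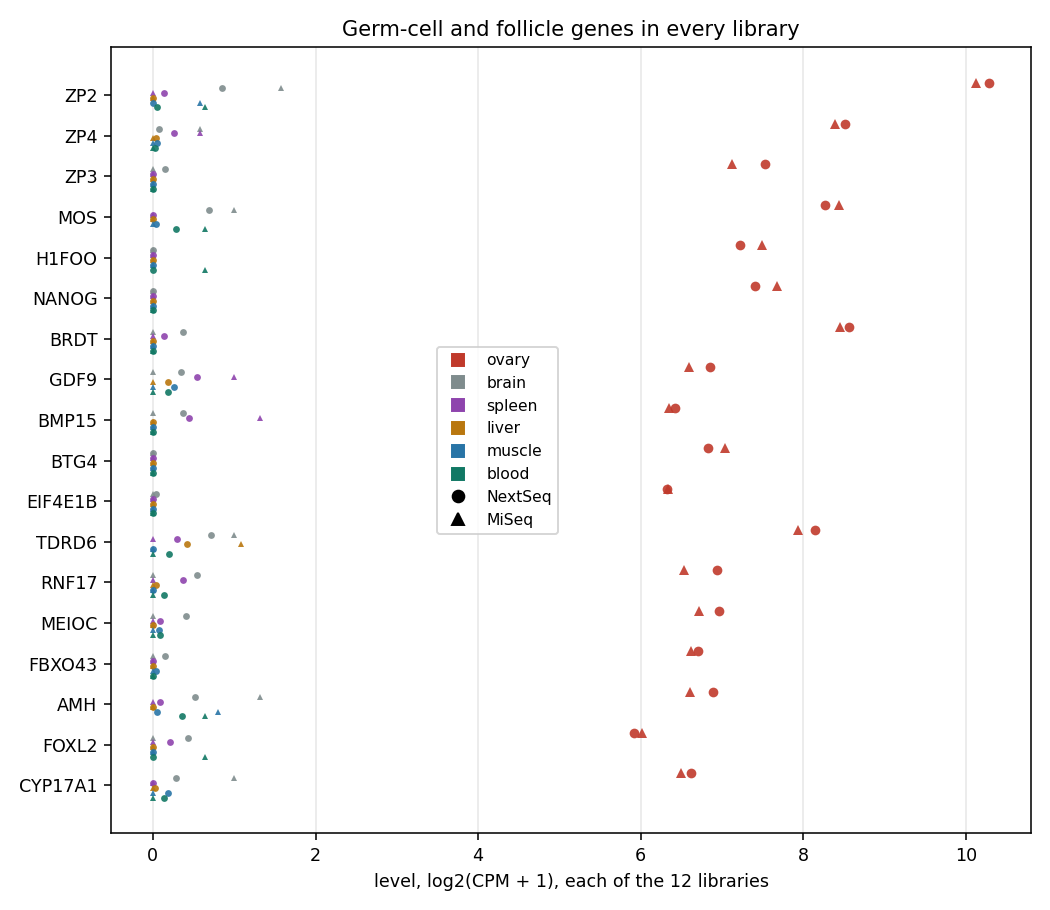
Level of 18 genes (log2 of CPM plus 1) in each of the 12 libraries, with the ovary's NextSeq and MiSeq libraries in red and those of the other tissues in other colours. The 18 are a selection from the lists and leave out members with other patterns, such as KIT and LIN28B. For the selected genes the ovary libraries lie at 59.3 CPM or more, and no library of another tissue exceeds 1.98 CPM. Of all compared segments, 5.44% were called higher in the ovary than in every other tissue.

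Genes that handle the stored messenger RNA of the oocyte were split between called and not called. Of 26 matched, 12 were called higher in the ovary (46.2%), or 7 with TMM, with a median log2 ratio of 0.96. BTG4, which brings the deadenylase to maternal RNA, had 113 and 130 CPM in the ovary libraries and no count elsewhere, at least 626-fold higher. CPEB1, the protein that keeps stored RNA silent until its tail is lengthened, had 469 CPM in the ovary against 59.3 CPM in brain. Its partner 4E-T (EIF4ENIF1) had 796.5 CPM in the ovary against 102 CPM in blood, and the cap-binding protein EIF4E1B 79.0 CPM against 0.0254 CPM in brain. The PAT1 homolog PATL2 had 175 CPM in the ovary against 3.88 CPM in spleen, and LSM14B, another component of stored RNA particles, 381 CPM against 90.1 CPM in brain. The poly(A)-binding proteins of eggs, PABPC1L and PABPN1L, had 136 and 117 CPM in the ovary, against 0.910 and 9.79 CPM in blood. The germ cell RNA-binding proteins DAZL and BOLL had 38.5 and 30.4 CPM in the ovary, against 0.333 CPM in spleen and 1.15 CPM in muscle.

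The other 14 members were not called. The helicase DDX6 had 75.9 CPM in the ovary and 248 CPM in blood, and the uridylyltransferases TUT4 and TUT7 had 68.9 and 110 CPM in the ovary, against 475 CPM in spleen and 450.5 CPM in blood. CPEB2, CPEB3 and CPEB4 had 13.2, 12.3 and 87.2 CPM in the ovary, against 36.9 and 47.8 CPM in brain and 234 CPM in blood. Of the 4 CPEB genes, CPEB1 was thus the one with its highest level in the ovary.

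The piRNA pathway silences transposons in the germ line with small RNAs bound to PIWI proteins. Of its 19 matched genes 16 were called higher in the ovary (84.2%), 18 had their highest level there, and the median log2 ratio was 3.19. With TMM 11 were called and 18 kept their highest level in the ovary. The PIWI proteins PIWIL1 and PIWIL2 had 54.0 and 15.3 CPM in the ovary, against 1.47 and 0.788 CPM in brain. The tudor proteins that gather PIWI complexes included TDRD1, with 499 and 428 CPM in the ovary libraries and 11.7 CPM in spleen, and TDRD6, with 280 CPM in the ovary and 0.661 CPM in brain. RNF17, a tudor protein also, had 120 CPM in the ovary and 0.432 CPM in brain. Among enzymes, the helicases MOV10L1 and DDX4 (vasa) had 73.3 and 102 CPM in the ovary, against 1.78 CPM in brain and 8.67 CPM in spleen. HENMT1, which methylates the ends of piRNAs, had 121 CPM in the ovary and 8.56 CPM in blood. The trimming enzyme PNLDC1 had 59.0 CPM in the ovary and 23.1 CPM in spleen, TDRD9 had 6.68 CPM in the ovary and 4.78 CPM in brain, and TDRD7, with roles in other tissues, had 144 CPM in the ovary and 151 CPM in spleen; these 3 were not called.

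Meiotic recombination is completed before adult life in the ovaries of birds, and genes of prophase were less uniform. Of 19 compared, 5 were called higher in the ovary (26.3%), 9 had their highest level there, and the median log2 ratio was −0.24. MEIOC, which keeps germ cells in meiosis in the mouse, had 122 CPM in the ovary against 0.305 CPM in brain. SYCP2 of the chromosome axis had 105 CPM in the ovary against 1.19 CPM in brain, and the meiotic cohesin SMC1B 59.5 CPM against 4.73 CPM in brain. By contrast, SYCP1, a protein of the paired chromosomes, had 46.2 CPM in the ovary, 54.8 CPM in brain and 50.7 CPM in spleen. SYCP3 had 15.6 CPM in the ovary against 29.0 CPM in spleen. DMC1, the recombinase of strand exchange, had 2.73 CPM in the ovary and 14.3 CPM in blood. SPO11, which cuts DNA to start recombination, had 1.16 CPM in the ovary and 0.102 CPM in brain. MEIOB, which binds the cut ends, had 0.344 CPM in the ovary and 7.01 CPM in liver.

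Most genes of the later divisions were called higher in the ovary, with spleen next for most of them. Of 35 matched, 22 were called (62.9%), 32 had their highest level in the ovary, and the median log2 ratio was 2.30, or 2.10 with TMM. Their levels summed to 8667 CPM in the ovary, against 2168 CPM in spleen, 357 CPM in blood, 302 CPM in brain, 108 CPM in liver and 89.8 CPM in muscle. Kinases of entry into division included AURKA, with 478 CPM in the ovary and 22.8 CPM in spleen, and greatwall (MASTL), with 439 CPM in the ovary and 23.9 CPM in spleen. Cyclin B2, which activates CDK1, had 982 CPM in the ovary and 57.5 CPM in spleen, while CDK1 itself had 353 CPM in the ovary and 94.1 CPM in spleen and was not called. Cyclin A1, a germ cell cyclin in mammals, had 150 CPM in the ovary and 1.15 CPM in spleen. FBXO43 (Emi2), which keeps the egg arrested in its second division, had 103 CPM in the ovary and 0.102 CPM in brain. The oocyte kinase WEE2 had 144 and 174 CPM in the ovary for its 2 segments, but the first had also 27.3 CPM in spleen. The spindle checkpoint kinase BUB1B had 1191 CPM in the ovary and 52.1 CPM in spleen.

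Among genes of the list that were not called were some that are widely used to mark proliferating cells. MKI67, a protein of dividing nuclei, had 93.9 CPM in the ovary and 354 CPM in spleen, and TOP2A, the topoisomerase of mitosis, 110 CPM in the ovary and 220 CPM in spleen. PCNA, the replication clamp, had 121 CPM in the ovary and 87.4 CPM in spleen. KIF11, the motor that separates the spindle poles, had 227 CPM in the ovary and 216 CPM in spleen.

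**Figure D3:**
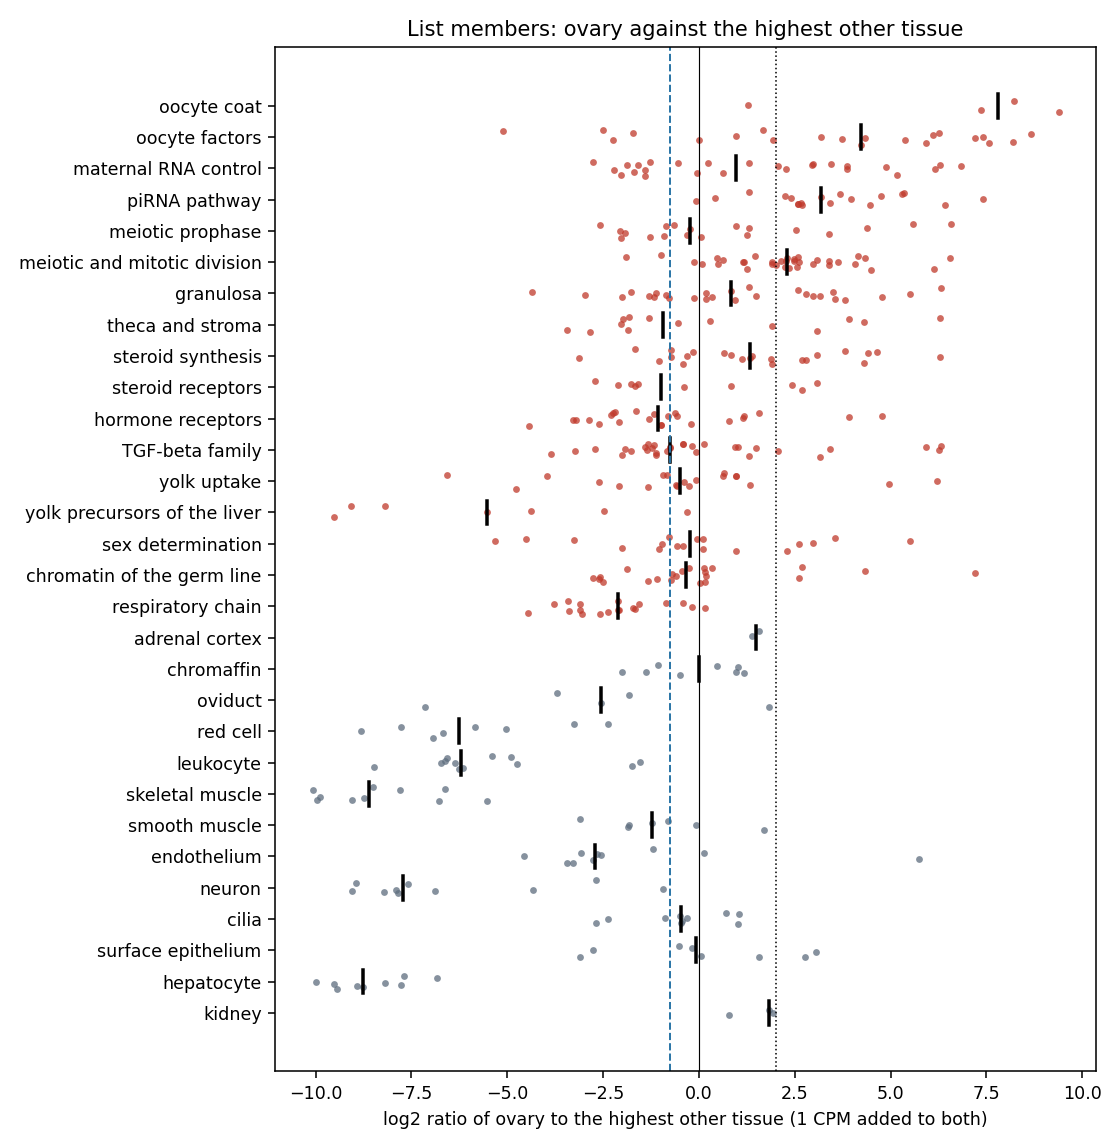
Log2 ratio of the ovary to the highest other tissue for each compared gene of the 30 lists (points), with the list median as a black tick. Red points are lists of ovarian functions, and also the lists of yolk precursors of the liver and of the respiratory chain. Grey points are markers of other cells and organs. The dotted line marks 4-fold, and the dashed line the median over all compared segments (−0.74), with the egg coat (7.80) and hepatocyte markers (−8.77) at the extremes.

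Markers of the follicle wall were present, and those of granulosa cells were mixed in direction. Of 27 matched granulosa genes 10 were called higher in the ovary (37.0%, beside 5.44% of all segments), or 8 with TMM (beside 3.26% of all). The median log2 ratio of the list was 0.83, which changed sign to −0.07 with TMM. The 10 include aromatase (CYP19A1), which lies mainly in the theca in the chicken, so the count is not of granulosa cells alone. AMH, which limits the recruitment of follicles, had 118 and 96.3 CPM in the ovary libraries and at most 1.48 CPM in another library. The FSH receptor had 43.6 CPM in the ovary and 0.635 CPM in brain, its next tissue. FOXL2, which keeps granulosa cells female, had 59.5 CPM in the ovary and 0.330 CPM in brain, and EMX2, which the gonad needs to form, 115 CPM in the ovary and 8.84 CPM in brain. WNT4, a signal of ovary formation, had 37.5 CPM in the ovary and 3.86 CPM in brain. GATA4, which switches on genes of the gonads, had 49.5 CPM in the ovary and 7.41 CPM in liver. The subunits of inhibin and activin were low: inhibin alpha (INHA) had 7.92 CPM in the ovary and no count elsewhere, at least 43.6-fold higher, whereas INHBA and INHBB had 0.783 and 1.43 CPM in the ovary and 3.02 and 7.27 CPM in brain. GJA1, the gap junction protein that couples granulosa cells, had 566 CPM in the ovary and 502 CPM in brain.

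Of 14 genes of theca and stroma, 4 were called (28.6%, beside 5.44% of all segments), all of them of steroid synthesis or its hormonal control. CYP17A1, which makes androgens, had 97.0 and 89.6 CPM in the ovary libraries and at most 0.989 CPM in another library. The LH receptor had 32.7 CPM in the ovary and 1.22 CPM in brain. Among markers of connective tissue, the receptor PDGFRA had 27.4 CPM in the ovary and 112 CPM in spleen, and the matrix protein lumican 34.3 CPM in the ovary and 126 CPM in spleen. Decorin, another matrix protein, had 195 CPM in the ovary and 286 CPM in spleen.

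The enzymes of steroid synthesis are described in the order of the pathway. Of 23 matched, 8 were called higher in the ovary (34.8%) and 15 had their highest level there, with a median log2 ratio of 1.33, or 0.08 with TMM. STAR, which brings cholesterol into mitochondria, had 111 CPM in the ovary and 12.3 CPM in spleen. CYP11A1, which cuts the side chain of cholesterol, had 3.57 CPM in the ovary and 0.229 CPM in brain, under the 4-fold rule. A 3-beta-hydroxysteroid dehydrogenase-like transcript, for the step to progesterone, had 118 CPM in the ovary and 5.06 CPM in spleen. Aromatase (CYP19A1), which turns androgens into oestrogens and lies mainly in the theca in the chicken, had 301 and 324 CPM in the ovary libraries, against 20.3 and 25.7 CPM in those of brain and no more than 0.988 CPM in the rest. Of the enzymes that interconvert weak and strong oestrogens in mammals, HSD17B1, which activates there, had 8.53 CPM in the ovary and 0.376 CPM in blood. HSD17B2, which inactivates in mammals, had 106 CPM in the ovary and 4.03 CPM in liver. The paper raises the possibility that the bird forms of these enzymes work differently. The 5-alpha-reductase SRD5A2 had 48.6 CPM in the ovary and 0.965 CPM in brain. The 5-beta-reductase AKR1D1, which inactivates androgens in birds and acts in bile acid synthesis, had 283 CPM in the ovary and 377 CPM in liver.

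**Figure D4:**
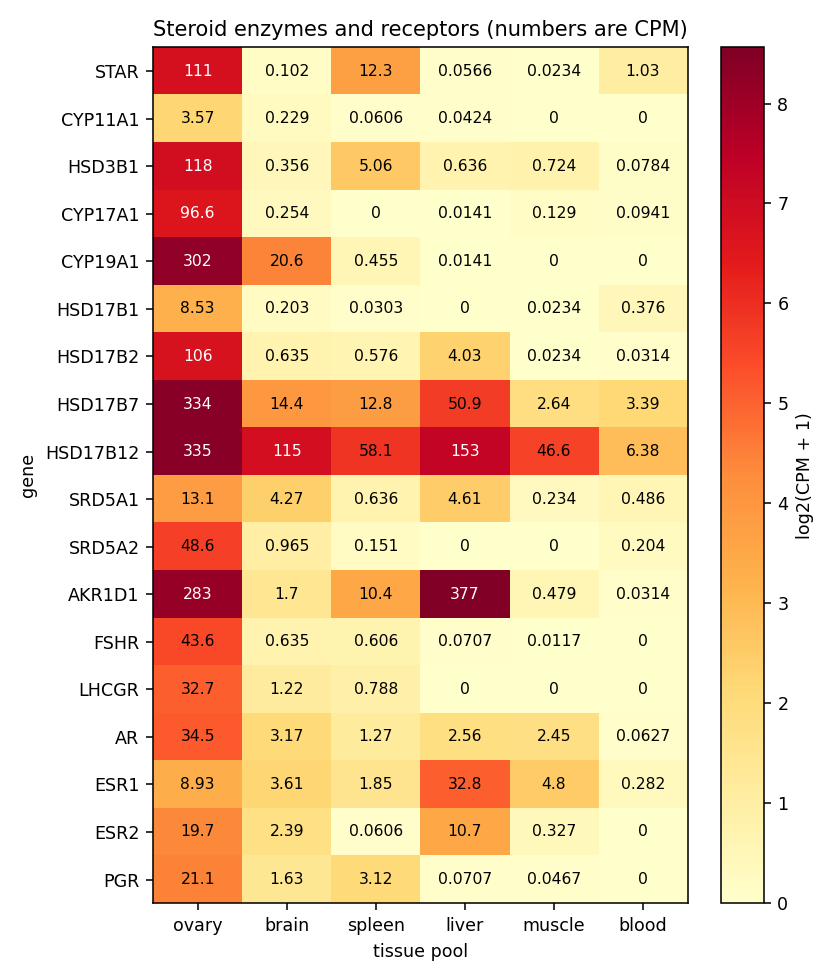
Heatmap of genes of steroid synthesis and its receptors (vertical axis) in the ovary and the 5 other tissues (horizontal axis); colour is log2 of CPM plus 1 and each cell prints the CPM. Aromatase has 302 CPM in the ovary and 20.6 CPM in brain, whereas AKR1D1 has 283 CPM in the ovary and 377 CPM in liver.

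Receptors for steroids and other hormones were next compared. Of 10 nuclear and membrane steroid receptors 3 were called (30.0%, beside 5.44% of all segments), with a median log2 ratio of −0.99. The androgen receptor had 34.5 CPM in the ovary and 3.18 CPM in brain, the progesterone receptor 21.1 CPM in the ovary and 3.12 CPM in spleen, and the vitamin D receptor 84.2 CPM in the ovary and 12.3 CPM in spleen. Of the oestrogen receptors, ESR1 had 8.93 CPM in the ovary and 32.8 CPM in liver. The 2 segments of ESR2 went in different directions, with 19.7 CPM in the ovary and 10.7 CPM in liver for the first. The second had 2.00 CPM in the ovary and 5.98 CPM in liver. Of the 10 steroid receptors 4 had their highest level in the ovary by total count, and 3 with TMM, beside 32.1% and 17.3% of all segments. Among 24 receptors of other hormones, those for FSH and LH were the 2 called (8.33%, a share near that of all segments), and the median was −1.08. The ACTH receptor MC2R, also on the list of adrenal cortex markers, had 1.97 CPM in the ovary and no count elsewhere, at least 10.8-fold higher. The growth hormone receptor had 10.6 CPM in the ovary and 248 CPM in liver.

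In the TGF-beta family, which links oocyte, granulosa and theca, the ovary-high members were ligands. Of 31 compared genes 6 were called (19.4%), namely GDF9, BMP15, AMH, INHA, BMP2 and BMP4, and the median log2 ratio was −0.74, equal to that of all segments. BMP4 had 99.9 CPM in the ovary and 8.46 CPM in spleen, and BMP2 17.1 CPM in the ovary and 3.36 CPM in spleen. No matched receptor or SMAD was called. The BMP receptor BMPR1B had 31.4 CPM in the ovary and 12.2 CPM in spleen, BMPR2 had 126 CPM in the ovary and 211 CPM in brain, and TGFBR2 had 8.63 CPM in the ovary and 88.8 CPM in spleen.

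Genes of yolk uptake included some with very high counts in the ovary. VLDLR, the oocyte receptor for vitellogenin and lipoprotein in the chicken, had 1056 and 1027 CPM in the ovary libraries and at most 45.0 CPM in another library. A second segment of the same name had 874 CPM in the ovary and 29.5 CPM in spleen. DAB2, an adaptor that joins such receptors to clathrin, had 4853 CPM in the ovary and 64.1 CPM in spleen, and its second segment 2118.5 CPM in the ovary and 25.3 CPM in spleen. A transcript named LRP2-like, a relative of the endocytic receptor megalin, had 3814 and 3153 CPM in the ovary libraries and 4.03 CPM in spleen. Its log2 ratio of 9.55 was the largest of the ratios ranked, whereas the transcript named LRP2 itself had 18.6 CPM in the ovary and 36.3 CPM in brain. The clathrin heavy chain, the lattice of coated pits, had 2037 CPM in the ovary, 807 CPM in brain and 601 CPM in spleen.

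Of the 20 matched genes of uptake VLDLR and DAB2 were called (10.0%, beside 5.44% of all segments), and the median log2 ratio was −0.48. Of the 20, 7 had their highest level in the ovary, a share near the 32.1% of all segments. The adaptor subunit AP2M1 had 1201 CPM in the ovary and 1263 CPM in brain, and LRP1 230.1 CPM in the ovary and 1414 CPM in brain. LRP8, another member of the receptor family, had 20.3 CPM in the ovary and 89.7 CPM in brain. Cathepsin D, which cleaves yolk proteins in the oocyte, had 519 CPM in the ovary and 779 CPM in spleen. The lipid droplet coat perilipin-3-like, outside the lists, had 496 CPM in the ovary and 1.52 CPM in spleen, and a second segment of the name had 408 CPM in the ovary and 0.0990 CPM in liver. The remaining 2 segments of the name were not called, with 23.2 CPM in the ovary and 13.9 CPM in muscle, and 20.8 CPM in the ovary and 6.91 CPM in brain.

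Genes of yolk precursors had low levels in the ovary. None of the 7 was called higher in the ovary, and their median log2 ratio was −5.54. The vitellogenin-1-like transcript had 29.6 and 37.5 CPM in the ovary libraries against 37.6 and 38.5 CPM in those of liver, and at most 0.988 CPM in the other 8. Its summed ovary level of 30.0 CPM (27.9 to 32.2) was 79.7% of the liver level of 37.7 CPM (35.7 to 39.7), so the counting intervals did not overlap. This closeness holds for total counts: the log2 ratio of ovary to liver was −0.32, but −2.22 with TMM and −1.04 with the 50 most abundant segments left out of each total. For vitellogenin-2-like the ovary had 28.1 CPM and liver 162 CPM, a share of 17.4%. A second segment of that name had 16.8 CPM in the ovary and 50.1 CPM in liver. Apolipoprotein B, the lipoprotein of yolk, had 29.7 CPM in the ovary and 22348 CPM in liver, a share of 0.133%, and transthyretin (TTR), a hormone carrier, had 0.248 CPM in the ovary, 363 CPM in brain and 156 CPM in liver. Albumin, a plasma protein that served as a hepatocyte marker, had 0.0975% of its liver level in the ovary.

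Regulators of sex determination and of germ line chromatin were called in part. Of 18 genes of sex determination 5 were called (27.8%, beside 5.44% of all segments), or 3 with TMM (3.26% of all), with a median of −0.24. DMRT1, the testis-determining gene of the chicken Z chromosome, had 3.90 and 4.09 CPM in the ovary libraries and no count elsewhere, at least 21.5-fold higher. SOX9, a factor of testis formation, had 0.535 CPM in the ovary and 1.30 CPM in brain. The retinoic acid enzymes ALDH1A1 and ALDH1A2 had 6.95 and 39 CPM in the ovary and 315 and 40.7 CPM in liver. Of 22 chromatin genes, 4 were called (18.2%), among them H1oo, which was set beforehand, and nucleoplasmin-2. Both are also counted among the oocyte factors. Nucleoplasmin-2, which loads histones in the egg, had 24.6 CPM in the ovary and 0.279 CPM in brain. UHRF1, which recruits the maintenance methyltransferase to DNA, had 331 CPM in the ovary and 50.3 CPM in spleen, while that enzyme, DNMT1, had 50.7 CPM in the ovary and 82.4 CPM in spleen.

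Of the 20 segments with the most counts in the ovary, 12 had their highest level there, beside 32.1% of all segments. Of the same 20, 5 were called, beside 5.44% of all segments. These included the uncharacterized LOC107203432 (15149 CPM in the ovary, 111 CPM in spleen) and LOC108963381 (7636 CPM in the ovary, 37.7 CPM in spleen). Also called were DAB2, LRP2-like, and PARP14, an ADP-ribosyltransferase, with 2897 CPM in the ovary and 66.7 CPM in spleen. Among the other 15 were transcripts of chaperones, ubiquitin, translation factors and mitochondria, such as HSP90-alpha with 5230.2 CPM in the ovary and 8594 CPM in spleen. Together the 20 held 8.05% of the ovary counts. The 20 most abundant of each other tissue held 13.6% in spleen, 14.5% in brain, 34.2% in liver, 51.8% in blood and 63.9% in muscle.

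Of the 20 segments ranked by ratio to the highest other tissue, with log2 ratios from 7.40 to 9.55, 6 were uncharacterized. LOC102060483 had 627 and 915 CPM in the ovary libraries and no count in the other 10, at least 3530-fold higher. Named ones besides those above included synaptophysin-like protein 1, a membrane protein of transport vesicles, with 594 CPM in the ovary and 0.915 CPM in brain. ESRP1, a splicing factor of epithelia, had 324 CPM in the ovary and 0.356 CPM in brain. The DNA glycosylase NEIL2 had 219 CPM in the ovary and 0.0508 CPM in brain, and CNGA1, known as a cation channel of rod photoreceptors, 235 CPM in the ovary and 0.0303 CPM in spleen. A histone named H2A-beta, sperm-like, had 181 CPM in the ovary and 0.0627 CPM in blood. Outside these 20, among the segments with muscle as the next tissue, TBPL2, the TATA-binding protein of oocytes in mammals and frogs, had 87.9 CPM in the ovary and 0.654 CPM in muscle.

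Set against each tissue singly, the ovary had fewest calls against spleen and brain. Against brain, 1894 segments (13.0%) were higher and 1695 (11.6%) lower in the ovary, with a median log2 ratio of 0.23. Against spleen, 2043 (14%) were higher and 1214 (8.34%) lower, with the same median of 0.23. Against liver, 6033 (41.4%) were higher and 634 (4.35%) lower, against muscle 7446 (51.1%) and 358 (2.46%), and against blood 7033 (48.3%) and 603 (4.14%). The medians were 1.64 for liver, 2.05 for muscle and 1.90 for blood, so that a single ratio is read against these medians.

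The lean of these last 3 comparisons depended on the scaling. With TMM the medians were 0.17 for liver, 0.21 for muscle and 0.56 for blood, and the calls were 2164 higher and 1564 lower against liver, 2252 and 1629 against muscle, and 3877 and 2004 against blood. Of all calls, the share higher in the ovary was then 58.1% against liver, 58.0% against muscle and 65.9% against blood, compared with 90.5%, 95.4% and 92.1% by total count. Against brain and spleen it was 44.7% and 57.9% with TMM and 52.8% and 62.7% by total count. The 4 egg coat genes kept their highest level in the ovary with TMM, as did 16 of the 17 oocyte factors that had it there by total count, with LIN28B the exception. The coat genes had a median log2 ratio to the highest other tissue of 6.75 with TMM.

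**Figure D5:**
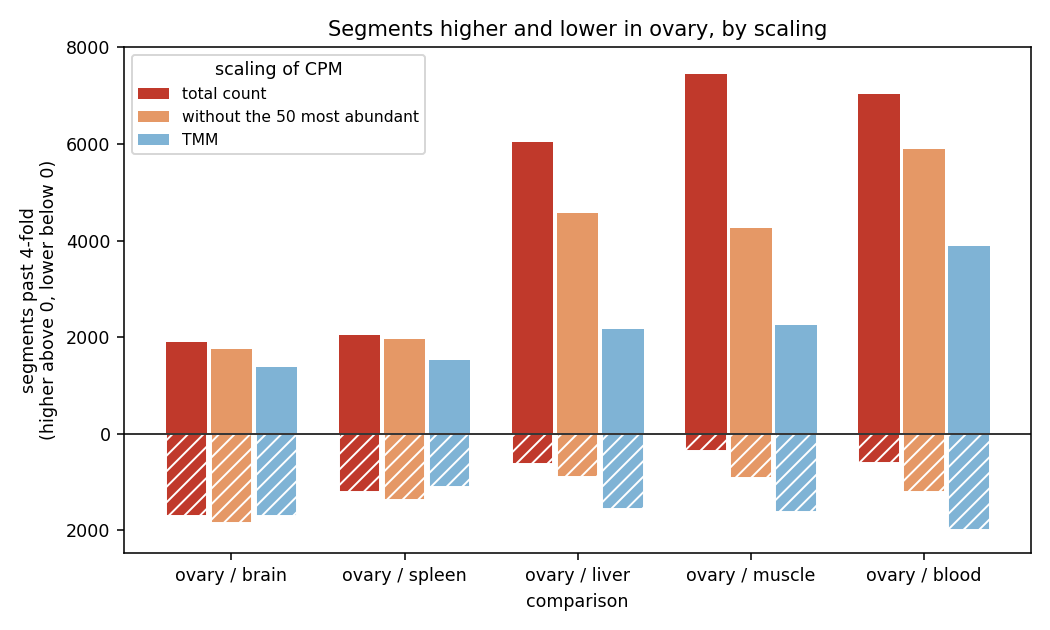
Number of segments called higher (up) or lower (down) in the ovary than in each other tissue, for 3 ways of scaling: total count, TMM factors, and the total without the 50 most abundant segments of each tissue. By total count 7446 segments are higher and 358 lower than in muscle, and with TMM 2252 are higher and 1629 lower.

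At the other end, 115 segments (0.790%) had their lowest level in the ovary, none of them by 4-fold. The log2 ratio to the lowest other tissue was −1.85 for ND6, a subunit of respiratory complex I encoded in mitochondria, with 381 CPM in the ovary and 1373 (blood) to 9055 CPM (muscle) elsewhere. The serotonin transporter had 5.33 CPM in the ovary and 12.1 (muscle) to 44.5 CPM (spleen) elsewhere, and a taurine transporter 18.2 CPM in the ovary and 36.5 (muscle) to 407 CPM (blood) elsewhere. With TMM these 3 were among 10 segments called lower than in every other tissue. Of 19 nuclear genes of the respiratory chain none was called higher in the ovary. CYC1 alone had its highest level there (28.5 CPM, against 25.5 CPM in brain), and none had its lowest level there. The median log2 ratio to the highest other tissue was −2.11, the same as to muscle alone, against which 12 of the 19 were lower by 4-fold. The medians were −0.33 to brain, 0.03 to spleen, −0.96 to liver and 1.16 to blood.

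Markers of other cells and organs were also measured in the ovary pool, and none of the lists' matched genes was at 0 there. Red cell markers (8 matched) summed to 1882 CPM in the ovary, 773 to 1256 CPM in brain, spleen, liver and muscle, and 457959 CPM in blood. Leukocyte markers (12 matched) summed to 369 CPM in the ovary, 10819 CPM in spleen and at most 166 CPM in the others. Hepatocyte markers (9 matched) summed to 135 CPM in the ovary, 110080.1 CPM in liver and 1.66 (blood) to 1208 CPM (spleen) elsewhere. Skeletal muscle markers (10 matched) summed to 60.1 CPM in the ovary, 37951 CPM in muscle and 3.53 (liver) to 404 CPM (brain) elsewhere, and neuronal markers (10 matched) to 203 CPM in the ovary, 6007 CPM in brain and 1.40 (muscle) to 168 CPM (blood) elsewhere. None of these lists had a gene called higher in the ovary. Within these lists the ovary levels were uneven. Of the leukocyte markers, CSF1R of macrophages had 174 CPM in the ovary and 507 CPM in spleen, and PAX5 of B cells 0.267 CPM in the ovary and 124 CPM in spleen. Of the neuronal markers, the tubulin TUBB3 had 136 CPM in the ovary and 261 CPM in brain, and the synaptic protein SNAP25 1.37 CPM in the ovary and 1253 CPM in brain. A second segment of TUBB3 had 19.6 CPM in the ovary and 150 CPM in brain. Hemogen, counted among the sex determination genes and red cell markers, had 99.99 and 197 CPM in the ovary libraries and 1011 CPM in blood, and the red cell factor GATA1 had 6.26 and 42.7 CPM in the ovary libraries.

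Cells that an ovary holds beside the follicle were represented unevenly. Endothelial markers summed to 944 CPM in the ovary and 1126 CPM in spleen, but endomucin alone made up 612 CPM of the ovary's sum, against 10.6 CPM in muscle, its next tissue. None of the other 9 matched markers was called. Surface epithelium markers summed to 473 CPM in the ovary and 127 CPM in spleen, mostly from claudin-1, with 307 CPM in the ovary and 35.9 CPM in liver. Of 8 compared epithelial markers 2 were called, claudin-1 and keratin 19, or 1 with TMM. Markers of smooth muscle (7 matched) summed to 362 CPM in the ovary and 1656 CPM in spleen, those of cilia (10 matched) to 206 CPM in the ovary and 185 CPM in brain, and those of the oviduct (6 matched) to 103 CPM in the ovary and 6175 CPM in liver, and no gene of the 3 lists was called. The 6 oviduct genes were matched from 11 symbols and lack ovalbumin (OVAL). They include transferrin (TF), which had in the ovary 0.687% of its liver level. Chromaffin markers (8 matched) summed to 270.1 CPM in the ovary, with 175 CPM of it from 1 gene, and to 516 CPM in brain. Of these 8, 4 had their highest level in the ovary, or 2 with TMM, and none was called. The 2 matched genes of the adrenal cortex, which lies beside the ovary in birds, summed to 21 CPM in the ovary and 6.64 CPM in spleen. Both had their highest level in the ovary, also with TMM, and 1 of them, MC2R, was unique to it. Kidney markers (3 matched) summed to 8.63 CPM in the ovary and 0.727 CPM in spleen. All 3 had their highest level in the ovary, also with TMM. All 3 were also unique to it, beside 2.38% of all segments, with ovary levels of 1.68 to 3.74 CPM. No gene of these 2 lists was called by total count. The part of such cells in the results above was not tested.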

How the data were processed

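RNA of 6 tissues was extracted with Trizol, pooled in equal amounts per tissue, prepared as stranded mRNA libraries and sequenced on 2 instruments. The authors deposited estimated counts per protein-coding segment of their own assembly, unscaled and in steps of 0.5. The submitters' processing notes name Trimmomatic 0.36 and STAR 2.5.2a, and the methods name bwa mem for mapping to the segments. Reads of near-identical copies may have been split, so histones, ubiquitins and retroviral names are uncertain. No segment lengths or coordinates were used here. Libraries were summed per tissue and scaled to CPM by total count, and 1 CPM was added before log2. The ovary was compared with each tissue, its highest and its lowest, without a test, since each tissue had 1 pool. Segments with 1 CPM in a tissue were compared. TMM factors came from edgeR 4.0.16 in R 4.3.3. Other steps used Python 3.11.15 with matplotlib 3.10.9, scipy 1.17.1, pandas 2.3.3 and numpy 2.4.6, and were tested on simulated data.

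Genes were matched to 30 lists by protein name, 414 of 504 symbols, and the segment with the most counts stood for a name with several. Gene names of the text follow these rules: the list members, the 20 segments most abundant in the ovary, the 20 with the largest and the 15 with the lowest ratio, and the 5 with the largest ratio for each next highest tissue. The members and lists were chosen with earlier results of these data known, and the names, families and further genes after their values were seen. Alternatives were TMM, totals without the 50 most abundant segments, either instrument alone, the mean of both, 0.5 or 2 CPM added, no filter or 10 CPM, summed names, and rules of 2-fold and 10-fold.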

Additional observations from a re-analysis of the deposited data

How the results depend on the processing

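Over the 13 counts of called segments, 119 of 136 recomputed values stayed within 1.5 times the reported one. Some of the 119 could not differ, so this tally overstates how stable the counts are. Dropping the filter left every count as it was, and the count unique to the ovary does not use the constant added. The NextSeq libraries alone hold most of each sum. No named gene called in the report changed its direction, which the constant added and the filter cannot alter. With TMM factors the count higher in the ovary than in every other tissue was 474 and the count lower was 10. The same factors gave 2164 higher and 1564 lower against liver, 2252 and 1629 against muscle, and 3877 and 2004 against blood. With the 50 most abundant segments left out of each total, 2 were lower than in every other tissue, 4250 were higher and 917 lower against muscle, and 1213 were lower against blood. A 2-fold rule gave 1983 higher and 6 lower than in every other tissue, and a 10-fold rule 293 higher. The count unique to the ovary, at 1 CPM or more there and less elsewhere, was 122 among segments that reached 10 CPM anywhere and 189 with a limit of 0.5 CPM. With the MiSeq or the NextSeq libraries alone, 841 and 800 segments were higher in the ovary than in every other tissue and none was lower, and 425 and 345 were unique to it. No paired analysis was possible because the numbers shared between tissues mark the instrument that read 1 pool, and no test was run. Counting a 0 as 3 counts changed the median of no list but that of the adrenal cortex, to 1.36. Depth limits the MiSeq values most, where 1 count in the ovary was 0.743 CPM.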

Other observations

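The genes of this section were picked after their values had been seen. Some are known from hormone systems other than the gonadal steroids, and as picked genes they say nothing of such systems as a whole. The calcium-sensing receptor CASR, which governs parathyroid hormone, had 230.4 CPM in the ovary and 7.75 CPM in brain, its next tissue. Tryptophan hydroxylase 1 (TPH1), the first enzyme of serotonin synthesis outside neurons, had 126 and 113 CPM in the ovary libraries and 10.1 CPM in brain. Calcitonin (CALCA), a hormone of calcium balance, had 32.7 and 61.7 CPM in the ovary libraries and 1.88 CPM in brain. The melanocortin receptor partner MRAP2 had 109 CPM in the ovary and 4.93 CPM in brain. The potassium channel KCNJ5, which controls aldosterone release in mammals, had 191 CPM in the ovary and 22 CPM in brain. Insulin-like growth factor 2 had 33.9 CPM in the ovary and 2.13 CPM in brain.

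Others are known from epithelial adhesion and the basement membrane. Plakophilin-2 and desmoglein-2 of desmosomes had 273 and 58.5 CPM in the ovary, against 4.70 CPM in brain and 1.46 CPM in blood. TP63, a factor that protects the oocyte genome in mammals and also marks stratified epithelia, had 81.3 CPM in the ovary and 4.58 CPM in spleen. Of 20 segments named for basement membrane proteins 5 were called higher in the ovary (25%, beside 5.44% of all segments), with a median log2 ratio to the highest other tissue of −0.05. They were laminin alpha-1 (426 CPM in the ovary, 17 CPM in spleen), collagen alpha-4(IV) (596 CPM in the ovary, 7.20 CPM in blood), collagen alpha-6(IV) (321 CPM in the ovary, 40.1 CPM in spleen) and 2 segments of FREM2. Collagen alpha-2(IV) and laminin alpha-2 had 106 and 54.5 CPM in the ovary and 246 and 393 CPM in spleen. Of 10 claudin segments 1, claudin-1, was called (10.0%, beside 5.44% of all segments), or 0 with TMM, and the median was −1.70.

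Of 36 segments named for kinesins 8 (22.2%) were called higher in the ovary, or 6 with TMM, beside 5.44% and 3.26% of all segments. Their median log2 ratio was −0.32, and their levels summed to 4264 CPM in the ovary and 5688 CPM in brain. KIF2C was among those called, with 569 CPM in the ovary and 29.1 CPM in spleen. Of 29 segments named for the centromere or kinetochore 9 (31.0%) were called, or 6 with TMM. NDC80 was among them, with 336 CPM in the ovary and 40.6 CPM in spleen. Of 9 importin alpha segments 2 (22.2%), alpha-1 and alpha-8, were called, whereas alpha-3 had 89.8 CPM in the ovary and 817 CPM in blood. Of 61 segments named for endogenous retroviruses 5 (8.2%) were called, and of 435 uncharacterized ones 40 (9.20%), beside 5.44% of all. No segment of 77 for cytoplasmic ribosomal proteins or 74 for mitochondrial ribosomes was called. Of the 74, 45 (60.8%) had their highest level in the ovary by total count, beside 32.1% of all segments. With TMM 5 of the 74 did, beside 17.3% of all segments, so the direction against all segments depended on the scaling. The 2 libraries of a tissue disagreed for some segments in all tissues: GATA1 had 42.7 CPM in the ovary MiSeq library and 6.26 CPM in the ovary NextSeq library, and 252.5 and 32.9 CPM in those of spleen.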
